A study of Saccharomyces cerevisiae with 12 samples.

Results

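The comparison described here is the dependence of the response to dithiothreitol (DTT) on Gcn4 in the budding yeast Saccharomyces cerevisiae: 3 arrays of a strain deleted for GCN4 (Δgcn4) were set against 3 arrays of the wild-type parent (WT), 6 of the 12 arrays of the series. The other 6 arrays, 3 of Δire1 and 3 of Δgcn2, were treated in the same way and are used as company for single values. All strains were MATa haploids that share auxotrophic alleles of ura3, leu2, his3, trp1 and ade2 and an allele of can1. In Δgcn4 and Δgcn2 the deleted gene was replaced by a his5+ cassette, and in Δire1 by TRP1. The sources used here do not say how many clones of each deletion were used. Cultures grew in YPD, a rich medium, to midlog phase before DTT was added. Each 2-colour spotted array compared poly(A) RNA of a culture treated with DTT for 30 min with RNA of untreated cells of the same strain, so every value is a log2 ratio of treated over untreated. A value of 0 is no response, and a difference between strains is a difference between responses. It says nothing of the level of an mRNA before treatment.

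DTT reduces disulfide bonds and so causes misfolded proteins to accumulate in the endoplasmic reticulum (ER). In the unfolded protein response (UPR) of yeast the ER kinase and nuclease Ire1 splices HAC1 mRNA, and the transcription factor Hac1 then acts on genes for folding, glycosylation, degradation and transport of secretory proteins. Gcn4 is a bZIP transcription factor best known for raising genes of amino acid synthesis when amino acids are short, after the kinase Gcn2 phosphorylates eIF2 and lets GCN4 mRNA be translated. The question of the comparison is which part of the transcriptional response to ER stress is lost, or gained, when Gcn4 is missing.

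The study placed 3 upstream sequences of yeast promoters at the centre of this response, called UPRE-1, UPRE-2 and UPRE-3. They are printed because the 3 genes they come from had unequal differences between the strains. The first and the second are upper strands of the study's binding probes, and the third is the motif with its flanks, all copied from its oligonucleotide table; capitals mark the motif.
UPRE-1 of KAR2 (YJL034W, chromosome X): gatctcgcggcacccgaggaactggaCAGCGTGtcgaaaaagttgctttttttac
UPRE-2 of ERO1 (YML130C, chromosome XIII): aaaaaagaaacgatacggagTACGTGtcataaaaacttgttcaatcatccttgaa
UPRE-3 of DHH1 (YDL160C, chromosome IV): taagaaaaAGGACAACacaatctt
KAR2 encodes the main Hsp70 chaperone of the ER. Its log2 ratios were 1.79, 1.90 and 2.20 in WT and 1.73, 1.55 and 1.79 in Δgcn4. The difference of -0.27 (SE 0.15) did not pass the test (adjusted p = 0.401, limma). ERO1, which encodes the oxidase that feeds disulfide bonds to the ER, had ratios of 1.90, 2.06 and 1.90 in WT and 0.97, 1.11 and 1.22 in Δgcn4. The groups did not overlap, and the difference was -0.85 (SE 0.13, adjusted p = 0.00136). DHH1, a DEAD-box helicase of mRNA decapping, went from 1.86, 1.61 and 1.90 in WT to 0.24, 1.07 and 0.48 in Δgcn4, a difference of -1.19 (SE 0.25, adjusted p = 0.0124). The DHH1 call was lost after scaling and without WT replicates 1 or 3 or Δgcn4 replicates 1 or 3 (adjusted p = 0.0547 to 0.0756). Thus ERO1 and DHH1 each still rose in Δgcn4, by less than in WT. ERO1 and DHH1 are elements 107 and 12 of the deposited table, and KAR2 is element 2999. The contrast of the 3 genes thus goes together with their place in it, which is taken up below.

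The deleted gene was looked at first. The GCN4 element had log2 ratios of -0.64, -0.62 and -0.50 in WT and -0.69, -0.99 and -0.81 in Δgcn4, and the ratios did not differ past the threshold (adjusted p = 0.401). The element was called as falling in Δgcn4 (mean -0.83, adjusted p = 4.34e-06, limma), although that strain lacks the gene. Likewise the GCN2 element was called as rising in Δgcn2 (mean 0.51, adjusted p = 0.00648, limma). What a ratio at a deleted gene measures was not tested, so a call can come from an element whose gene is absent. A ratio of treated over untreated cells of 1 strain carries no level, so neither the GCN4 element nor the mating-type genes can check the genotype. HAC1 had ratios of 1.16, 1.11 and 1.03 in WT and 0.23, 1.25 and 1.71 in Δgcn4, with means of 1.10 and 1.06 that could not be told apart (SE of the difference 0.40, adjusted p = 0.976). The spread of HAC1 in Δgcn4 was the wider, with an SD of 0.76 against 0.06 in WT. GCN2 and TRL1, the tRNA ligase that rejoins cut HAC1 mRNA, differed by -0.28 and -0.30 (adjusted p = 0.547 and 0.376). IRE1 was not analysed here.

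Each of 6024 array elements was tested, and an element was called where its Benjamini-Hochberg adjusted p was under 0.05. In Δgcn4 117 elements responded lower than in WT (1.94%) and 52 higher (0.863%). The lower differences ran from -2.28 to -0.53 and the higher from 0.47 to 1.06, against a median of 0.0053 over all elements and a median SE of 0.159. Of the lower elements 48 differed by at least 1 on the log2 scale, and of the higher only 2. No called element had WT and Δgcn4 arrays that overlapped. Over all elements, the arrays stayed apart in the lower direction for 599 (9.94%) and in the higher for 617 (10.2%).

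The lower elements were mostly genes that DTT raised in WT. In WT 1108 elements rose (18.4%) and 2352 fell (39.0%), and in Δgcn4 949 rose (15.8%) and 2329 fell (38.7%). Of the 117 lower elements 86 rose in WT. Among those 86, 17 also rose in Δgcn4, 35 had no call there and 34 fell. The other 31 did not rise in WT, and all 31 fell in Δgcn4. The median response of the 117 elements was 0.64 in WT and -0.40 in Δgcn4. The higher elements were the mirror image: 47 of the 52 fell in WT, of which 29 still fell in Δgcn4, 14 had no call and 4 rose. Their median response was -1.04 in WT and -0.42 in Δgcn4. Beyond these, 3 higher elements rose in both strains. The WT and Δgcn4 arrays that gave the calls also gave these responses, so part of this pattern follows from the choice of elements.

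**Figure D1:**
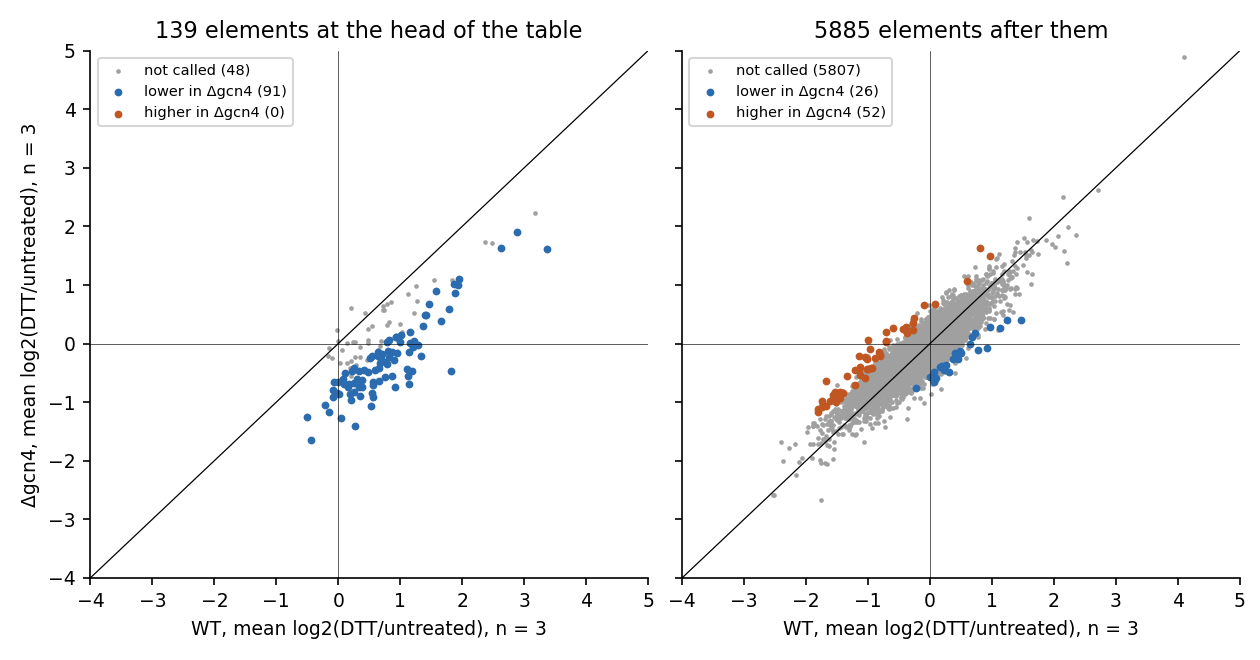
Mean response to DTT, the log2 of treated over untreated, in WT (horizontal axis) and Δgcn4 (vertical axis), 1 point per element, n = 3 arrays a strain, with the 139 elements at the head of the table on the left and the 5885 after them on the right. Of the lower elements 91 lie on the left, below the diagonal of equal response, and 26 on the right, where all 52 higher elements lie.

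The place of an element in the deposited table went together with its call, and every result above and below has to be read beside this. The first 139 elements stand outside the order of systematic gene names that the other 5885 follow, with 5 steps against it, and they form 6 runs, each in that order within itself. These 139 elements held 91 of the 117 lower elements and 0 of the 52 higher ones by limma (116 lower and 1 higher at an unadjusted p under 0.05), and 134 of their 139 differences were below 0, with a median of -0.83. Among the other 5885 elements 26 were lower, and the median difference was 0.0117. The table does not say what sets the 139 apart, and what their common shift reflects was not tested. The split was made after the values were seen.

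The shift at the head of the table was also there where WT hardly responded. Of the 139 elements 58 had a WT mean within 0.5 of 0, and of these 53 had a difference below 0 and 32 were called lower, with a median of -0.70. After the head of the table, 3924 elements had such a small WT mean, with 16 called lower and a median of -0.0145. The medians of the 139 elements were 0.54, 0.63 and 0.71 on the WT arrays and -0.37, -0.18 and -0.08 on the Δgcn4 arrays, which did not overlap. On the Δgcn2 arrays they were -0.02, 0.03 and 0.09, and on the Δire1 arrays -0.21, -0.17 and -0.14. The other 5885 elements had medians of -0.17, -0.22 and -0.10 in WT and -0.14, -0.19 and -0.15 in Δgcn4, within the range of the WT arrays.

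The runs differed among themselves. In the fifth, elements 55 to 130, all 76 differences were below 0, from -1.76 to -0.46, with 67 called lower. In the first, elements 1 to 11, the median difference was -1.54 and 10 of 11 were lower. In the fourth, elements 49 to 54, it was -1.36, with 5 of 6 lower. The third, elements 14 to 48, was the exception: its median difference was -0.27, its differences reached 0.39, and 5 of its 35 elements were lower. Elements 12 and 13, DHH1 and LAS21, were both lower, and in elements 131 to 139 2 of 9 were lower, with a median of -0.72.

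**Figure D2:**
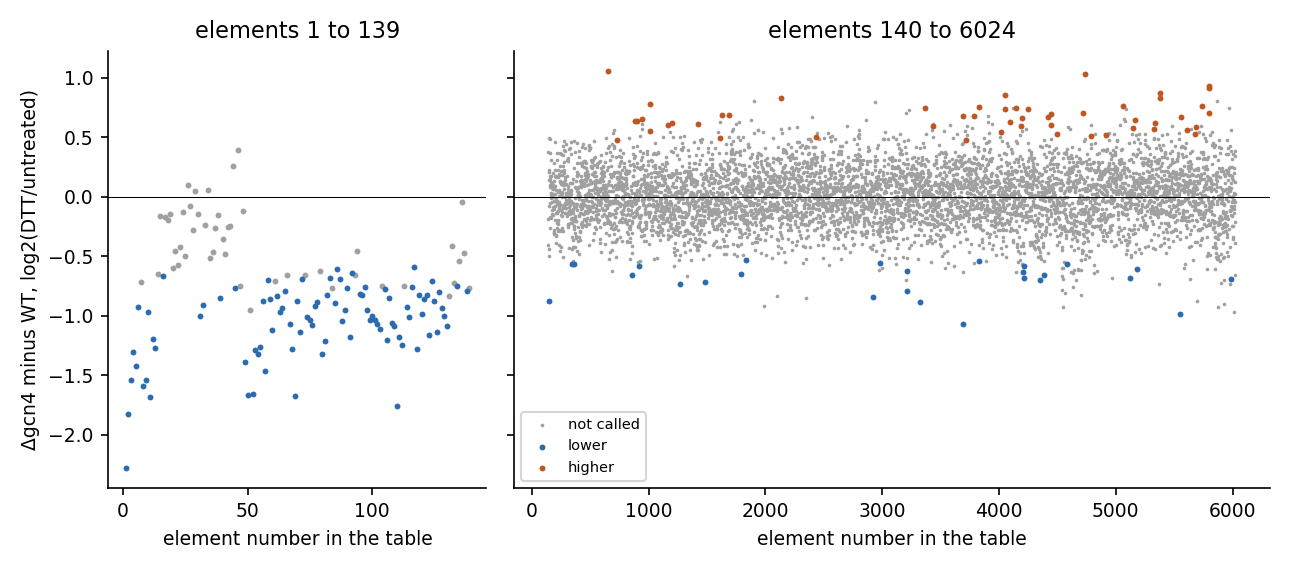
Difference of the mean log2 ratio, Δgcn4 minus WT (vertical axis), against the number of the element in the table (horizontal axis), elements 1 to 139 on the left and 140 to 6024 on the right. The points on the left sit around -0.83, except in elements 14 to 48, and those on the right around 0.0117.

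A single gene with a name here, ABP140, was measured both inside and outside the head of the table, and its values disagreed. ABP140 encodes an actin-binding protein and has 2 elements. Element 126 gave ratios of 1.29, 0.84 and 1.33 in WT and 0.18, -0.27 and 0.13 in Δgcn4, a difference of -1.14 (adjusted p = 0.00128). Element 5409 gave 0.77, 0.26 and 0.91 in WT and 1.30, 0.55 and 0.64 in Δgcn4, a difference of 0.18 (adjusted p = 0.731). The 2 elements of this gene thus gave a loss of the response and no loss of it. The gene model of YBR219C overlaps that of YBR220C: the former, element 60, differed by -1.12 (adjusted p = 0.000229) and the latter, element 566, by 0.28 (adjusted p = 0.469). Likewise YLR464W, element 106, differed by -1.21 (adjusted p = 0.000391), while YRF1-4, whose model it overlaps, differed by 0.11 at element 4168 (adjusted p = 0.772). In 2 other overlapping pairs no element was called: ARE1 and YCR050C differed by -0.14 and -0.13, and CWC25 and VPS75 by -0.48 and 0.20.

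Genes of the secretory pathway were 28 of the 117 lower elements, and 36 of the 139 elements at the head of the table. Across 11 lists of this pathway, 207 genes measured, 28 were lower and 1 was higher, where 1.94% and 0.863% of all elements were. All 28 stood at the head of the table: 28 of the 36 secretory genes there were lower, and 0 of the 171 elsewhere by limma (5 lower and 14 higher at an unadjusted p under 0.05, where 479 and 474 of 6024 elements were). Since genes that DTT raises are the ones with a response to lose, the genes that rose in WT were counted apart. Of the 36 at the head 29 rose in WT, 24 of them were lower, and the median difference was -0.93. Elsewhere 51 secretory genes rose in WT, none was lower by limma (3 lower and 2 higher at an unadjusted p under 0.05), and the median difference was -0.086. Of all 98 elements at the head that rose in WT 70 were lower, with a median of -0.927. Of the 1010 elsewhere that rose 16 were lower, with a median of -0.12. The secretory medians were thus near those of all rising elements in the same part of the table. Over the 207 genes together the median difference was -0.0277.

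Among 14 genes of ER chaperones and folding, SIL1, LHS1 and ERJ5 were lower, and the median of the list was 0.0577. SIL1 encodes a nucleotide exchange factor of Kar2. Its ratios were 2.95, 2.80 and 2.91 in WT and 2.21, 1.77 and 1.73 in Δgcn4, so that a strong response remained. LHS1, an Hsp70 that also serves Kar2 as an exchange factor, had 2.68, 2.25 and 2.96 in WT and 1.67, 1.55 and 1.66 in Δgcn4 (difference -1.00, adjusted p = 0.0277). The LHS1 call was lost in 7 of 12 alternatives, among them each left-out array except WT replicate 2 (adjusted p = 0.0532 to 0.134). ERJ5, an ER J-domain protein, went from 0.60, 0.85 and 0.96 to 0.05, -0.19 and -0.23 and was not called as rising there. Against these, the J-domain partners of Kar2 that stand later in the table had nearly the same response in both strains: JEM1 had means of 1.60 in WT and 1.51 in Δgcn4, and SCJ1 0.83 and 0.89. KAR2 itself belongs to this later set.

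In the list of disulfide isomerases and ER oxidases 3 of 7 genes were lower, and the median was -0.71. EUG1 and MPD1 encode members of the protein disulfide isomerase family. EUG1 had ratios of 1.64, 1.89 and 2.14 in WT and 1.12, 0.57 and 0.89 in Δgcn4, and MPD1 1.84, 1.98 and 1.99 against 0.88, 1.11 and 1.01. In neither did the arrays overlap. ERO1 was the other lower gene. PDI1, the essential member of the family, had means of 1.23 and 0.52, a difference of -0.71 that did not pass (SE 0.22, adjusted p = 0.109).

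ER-associated degradation (ERAD), which returns misfolded proteins to the cytosol for the proteasome, had 3 lower genes of 19 and a median of -0.13. HRD1 encodes its membrane ubiquitin ligase, and went from 1.61, 1.34 and 2.02 in WT to 0.40, 0.22 and 0.52 in Δgcn4 (difference -1.28, SE 0.20, adjusted p = 0.00176). UBC7, the conjugating enzyme that works with Hrd1, rose little in WT, at 0.14, 0.48 and 0.14, and fell in Δgcn4, at -1.05, -0.78 and -0.67. DFM1, a rhomboid-like protein of the pathway, kept part of its response, with means of 1.58 in WT and 0.89 in Δgcn4. HRD3 and DER1, which form a complex with Hrd1, stand later in the table and had means of 1.41 and 1.57 in WT and 1.29 and 1.74 in Δgcn4. Within this 1 complex HRD1 was lower, while HRD3 and DER1 differed by -0.11 and 0.18, neither called.

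Glycosylation genes gave a similar split. In O-mannosylation, the transfer of mannose to serine and threonine in the ER, 3 of 7 genes were lower, and the median was -0.75. PMT1 had ratios of 1.03, 0.94 and 1.44 in WT and -0.86, -0.86 and -0.34 in Δgcn4, a difference of -1.82 (SE 0.16, adjusted p = 1.75e-05), or 0.282-fold. PMT2, its partner in the mannosyltransferase dimer, went from 1.10, 1.26 and 1.25 to -0.41, 0.13 and 0.10, and PMT5 differed by -0.97. None of the 3 was called as rising in Δgcn4. In the assembly of the dolichol-linked glycan, the donor of N-glycosylation, 3 of 21 genes were lower and 1 was higher, with a median of 0.13. SEC59, the dolichol kinase, went from 1.21, 1.34 and 1.55 to 0.24, 0.27 and 0.41. DPM1, the dolichol phosphate mannose synthase, had ratios of 0.07, 0.51 and 0.24 in WT, with no call, and fell in Δgcn4, at -1.88, -1.25 and -1.10. ALG14, which acts early on the glycan, differed by -0.70 (adjusted p = 0.0343). DIE2, the glucosyltransferase that completes the glycan, moved the other way, from -0.21, -0.37 and -0.24 to 0.09, 0.33 and 0.25 (adjusted p = 0.0347, and 0.0872 with the head of the table left out of the fit). No gene of the 11 of the oligosaccharyltransferase and glycan trimming list was called in either direction.

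Attachment of glycosylphosphatidylinositol (GPI) anchors to surface proteins had 4 lower genes of 25. LAS21, which adds ethanolamine phosphate to the anchor, went from 0.34, 0.46 and 0.89 to -0.58, -1.42 and -0.12. GWT1, which acylates its inositol, and GAA1 and GPI16, subunits of the transamidase, differed by -0.77, -0.76 and -0.70. The median of the list was -0.0677. In translocation into the ER 2 of 25 genes were lower. SEC62 had ratios of 0.63, 0.66 and 0.71 in WT and -0.43, -0.34 and -0.48 in Δgcn4, and SEC72 0.35, 0.22 and 0.46 against -0.69, -0.80 and -0.67. Both belong to the complex for post-translational translocation. Its other members did not pass: SEC61, at the head of the table, differed by -0.75 (adjusted p = 0.0534), and SEC63, later in it, by 0.22 (adjusted p = 0.635).

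Vesicle coats showed the split within a single complex most plainly. SEC26 and SEC27 encode the beta and beta' subunits of COPI, the coat of retrograde vesicles, and both stand at the head of the table. SEC26 had ratios of 1.06, 1.14 and 1.17 in WT and -0.48, -0.77 and -0.41 in Δgcn4, a difference of -1.68 (SE 0.13, adjusted p = 6e-06), or 0.313-fold. SEC27 went from 0.60, 0.47 and 1.19 to -0.48, -0.65 and -0.57 (difference -1.32). The other 5 subunits stand later in the table. COP1, SEC21, RET2, RET3 and SEC28 differed by -0.02, -0.21, 0.09, -0.052 and -0.002, none of them called. Of the COPII and ER exit list 4 of 31 genes were lower: ERV25, a cargo protein of these vesicles, by -1.33, SFB3 and SFB2, which resemble the cargo adaptor Sec24, by -0.89 and -0.85, and SEC12, which loads Sar1 with GTP, by -0.76. KTR1 was the 1 lower gene of 27 Golgi mannosyltransferases, from 0.68, 1.11 and 1.00 to 0.29, 0.15 and -0.12.

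**Figure D3:**
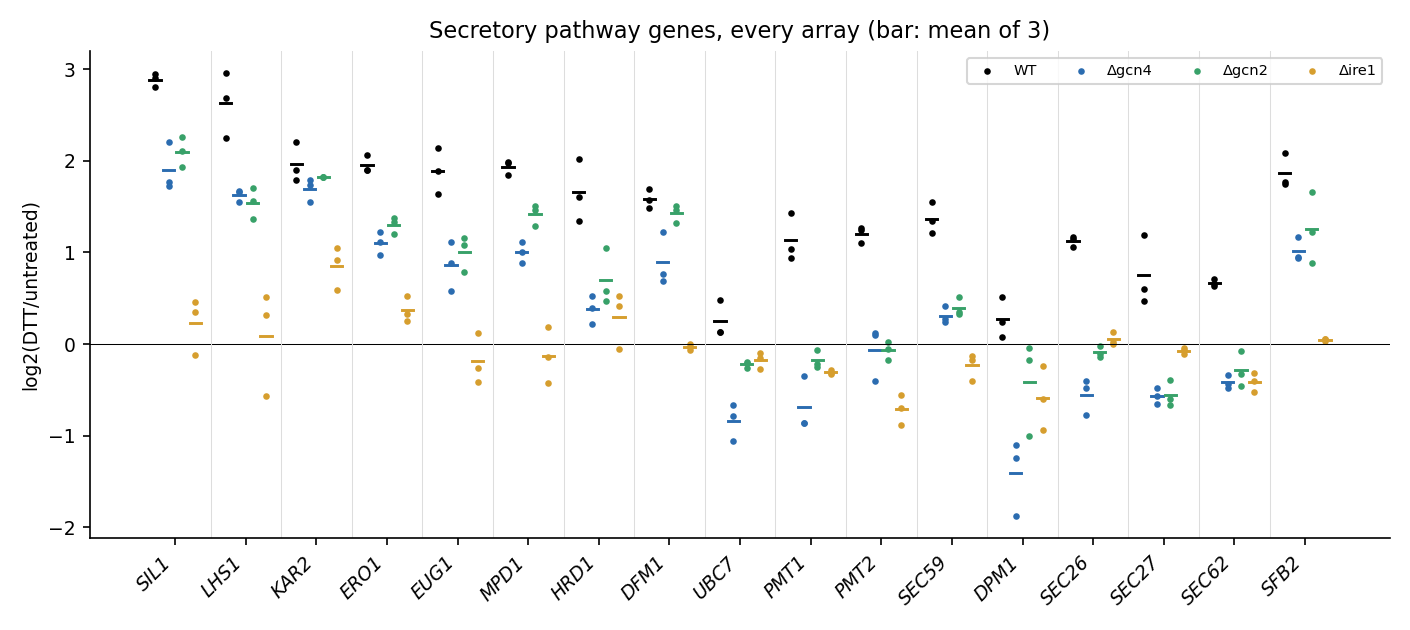
Response to DTT, the log2 of treated over untreated, on every array (vertical axis) for 17 secretory pathway genes (horizontal axis), 3 arrays a strain with the bar at their mean. In WT the lower genes sit above Δgcn4 with no overlap, while the KAR2 arrays of the 2 strains lie close, with means of 1.96 and 1.69.

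The largest single losses were not all secretory. MGR1, an adaptor of the i-AAA protease of the mitochondrial inner membrane and element 1 of the table, had ratios of 1.69, 2.11 and 1.64 in WT and -0.60, -0.76 and -0.03 in Δgcn4, a difference of -2.28 (SE 0.19, adjusted p = 1.01e-05). YET2, a relative of the mammalian ER protein BAP31, had the strongest response of the leading genes, 3.24, 3.13 and 3.74 in WT, and kept 1.52, 1.50 and 1.80 in Δgcn4. KEG1, an ER membrane protein of cell wall glucan synthesis, went from 0.72, 1.13 and 0.91 to -0.94, -0.53 and -0.75. RSC1, a subunit of the RSC chromatin remodeller, went from 0.47, 0.60 and 0.52 to -1.27, -0.80 and -1.10, and PTA1, of the mRNA cleavage and polyadenylation factor, from 0.41, 0.86 and 0.35 to -1.56, -0.75 and -0.22. All 5 genes stand at the head of the table. POF1, YOL057W, SNA4, MIX23 and HLR1, the rest of the 15 lowest outside the secretory lists, differed by between -1.67 and -1.42. Of the 103 elements at the head of the table outside the 11 secretory lists 63 were lower, with a median of -0.82.

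Single called genes of other lists also came from the head of the table. MET8, of siroheme synthesis, was the only lower gene of 28 for sulfate assimilation and methionine, and differed by -0.86 where the list's median was 0.30. THI20, of thiamine synthesis, RRN9, of the RNA polymerase I upstream factor, GAS5, a cell wall glucanosyltransferase, and HOP1, of the meiotic chromosome axis, differed by -0.86, -1.01, -0.83 and -0.95. Their lists had 23, 26, 34 and 20 measured genes, and none had another lower member.

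Outside the head of the table the lower set was small, and a heat shock gene had its largest difference. The set also holds genes with only a systematic name, among them YER138C, YJR026W, YJR029W, YML039W, YML040W and YMR046C. Their function is not described here. Among 24 cytosolic heat shock chaperones 2 were lower, 21 differences were below 0 and the median was -0.26. HSP104, the disaggregase, had ratios of 1.50, 1.48 and 1.43 in WT and 0.25, 0.64 and 0.31 in Δgcn4, a difference of -1.07 (SE 0.19, adjusted p = 0.00397). SSA1, a cytosolic Hsp70, went from 1.27, 1.22 and 0.92 to 0.21, 0.37 and 0.21 (difference -0.87, adjusted p = 0.0171), a call lost without WT replicates 1 or 2 or Δgcn4 replicates 1 or 3 (adjusted p = 0.0523 to 0.0901). Neither had arrays that overlapped. In Δire1 HSP104 and SSA1 had means of 1.84 and 0.94, and in Δgcn2 0.69 and 0.32. The related genes SSA2, HSP82, SSE1, HSP78 and SSA4 differed by -0.63, -0.61, -0.54, -0.41 and -0.23, none called, and HSP26 by 0.11.

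The 26 lower elements outside the head of the table rested in part on the 139 elements sharing the adjustment. With these left out of the fit, 6 of the 26 were lower among 5885 elements: HSP104, YOR385W, YIL171W, YJR029W, NAT1 and an element with no gene name here. HSP104 then had an adjusted p of 0.0299, and SSA1, which was no longer called, 0.0652. YOR385W, named after its values were seen like the next gene, had ratios of 0.88, 0.75 and 1.12 in WT and -0.20, -0.02 and 0.01 in Δgcn4. NAT1, a subunit of the N-terminal acetyltransferase NatA, had 0.65, 0.41 and 0.46 against -0.14, -0.28 and -0.04. Leaving out WT replicate 1, WT replicate 3 or Δgcn4 replicate 2 lowered the 26 to 11, 10 and 15.

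**Figure D4:**
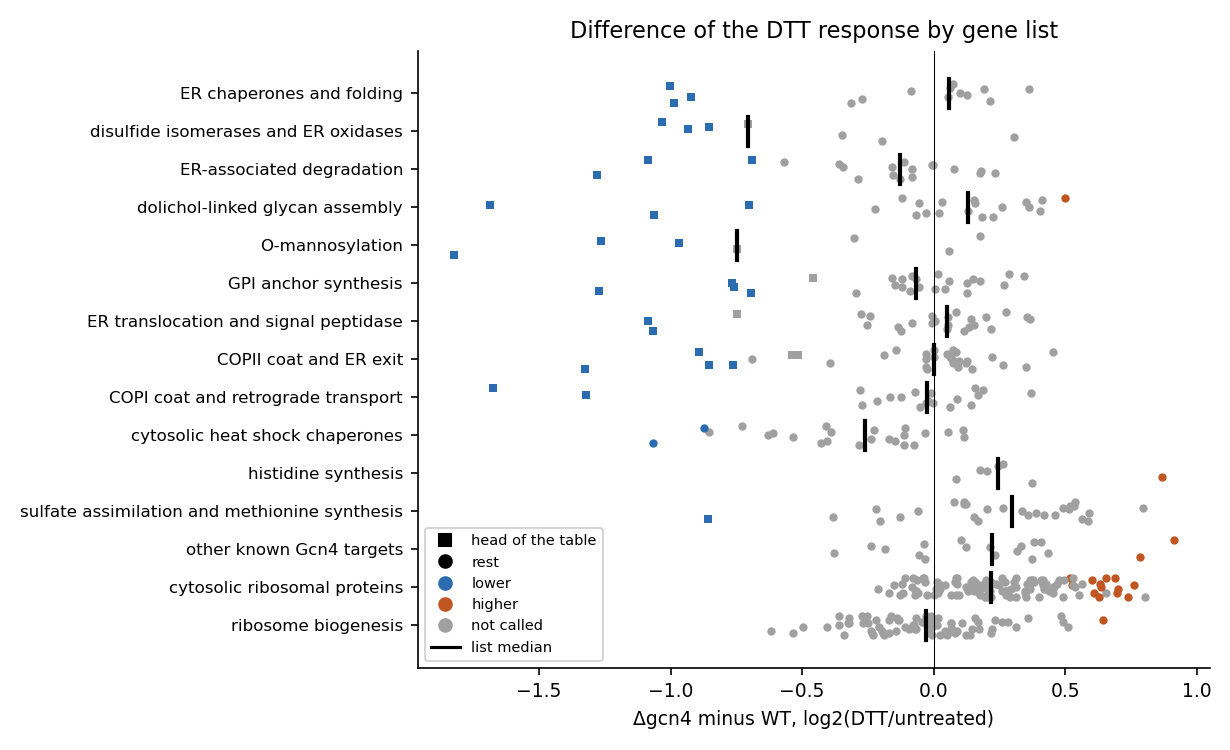
Difference Δgcn4 minus WT of the mean log2 ratio (horizontal axis) for each gene of 15 lists (vertical axis), squares for genes at the head of the table, circles for the rest, colour for the call, and a black bar at the list's median. The lower secretory genes are squares, and the medians of the lists are near 0 except for isomerases (-0.71), O-mannosylation (-0.75), heat shock (-0.26) and the amino acid, other Gcn4 target and ribosomal protein lists above 0.

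The higher set, 52 elements, was led by genes that DTT lowered in WT, with ribosomal protein genes as its largest group. Of 125 cytosolic ribosomal protein genes 13 were higher and 0 lower by limma (52 and 0 at an unadjusted p under 0.05), where 0.863% of all elements were higher, and 107 differences were above 0. The list's median response was -1.25 in WT and -0.98 in Δgcn4, and the median of the differences was 0.22. On single arrays the median of the list was -1.19, -1.21 and -1.38 in WT and -1.01, -0.93 and -1.03 in Δgcn4, with no overlap. It was -0.95, -0.89 and -0.82 in Δire1 and -1.04, -0.97 and -1.13 in Δgcn2. The genes still fell in Δgcn4, 121 of 125 past the threshold against 122 in WT.

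The higher ribosomal genes included 4 of the acidic stalk. RPP0 had ratios of -1.20, -1.03 and -1.18 in WT and -0.48, -0.32 and -0.39 in Δgcn4, a difference of 0.74 (SE 0.14, adjusted p = 0.00727). RPP2A went from -1.79, -1.50 and -1.95 to -0.92, -0.97 and -1.05, and RPP1B and RPP2B, named after their values were seen, differed by 0.66 and 0.61. RPL13B and RPS7B, of the large and the small subunit, differed by 0.70 and 0.70. Several of these genes have near-identical copies that a spotted probe may not separate. The count of 13 fell to 6, 2, 8, 5 and 5 without WT replicate 1, WT replicate 3 and Δgcn4 replicates 1, 2 and 3, and to 3 with the head of the table left out of the fit. Ribosome biogenesis genes did not follow: of 80, 1 was higher (RRP40, an exosome subunit, by 0.64), and their median was -0.0277.

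Genes of amino acid synthesis, the textbook targets of Gcn4, mostly fell in WT and had few calls between the strains. The cultures grew in YPD and none was starved for amino acids, so a loss of the starvation response could not be seen. Of 104 genes in 8 synthesis lists 2, HIS3 and ILV6, were higher and 1, MET8, lower, where 0.863% and 1.94% of all elements were. Of the differences 75 were above 0, with a median of 0.14 against 0.0053 over all elements. The median response of the 104 genes was -0.52 in WT and -0.28 in Δgcn4. On single arrays it was -0.49, -0.51 and -0.45 in WT and -0.24, -0.27 and -0.34 in Δgcn4, with no overlap, and in Δgcn2 -0.35, -0.32 and -0.27. In WT 7 of the 104 rose and 65 fell, and in Δgcn4 7 rose and 52 fell. None of these lists had a rise in WT to lose, by its median: the WT medians ran from -0.85 for sulfate and methionine to -0.14 for glutamate and its relatives. A separate list of 18 other known Gcn4 targets had 2 higher genes, ATG41 and GGC1, and a median of 0.22.

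ILV6, the regulatory subunit of acetolactate synthase in valine and isoleucine synthesis, had the largest positive difference, from -1.27, -0.71 and -1.01 in WT to -0.29, 0.24 and 0.23 in Δgcn4 (1.06, SE 0.27, adjusted p = 0.0455). ATG41, an autophagy gene among the known Gcn4 targets, had -0.76, -0.47 and -0.91 in WT and 0.11, 0.28 and 0.21 in Δgcn4, and GGC1, the mitochondrial GTP/GDP carrier, from -1.34, -1.20 and -1.47 to -0.39, -0.70 and -0.57. With the head of the table left out, ILV6 and GGC1 had adjusted p values of 0.0998 and 0.0704, and ATG41 0.0299. Of 12 alternatives ILV6 lost its call in 6, GGC1 in 4 and ATG41 in 0.

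HIS3, of histidine synthesis, stood apart because it is also a marker gene of the strains. Its ratios were -1.00, -0.81 and -1.07 in WT and -0.15, -0.11 and -0.02 in Δgcn4, a difference of 0.87 (SE 0.13, adjusted p = 0.000942). They were -0.10, -0.30 and -0.33 in Δgcn2 and -0.98, -0.93 and -0.81 in Δire1. The 2 strains with a weak response are those that carry the his5+ cassette, and the 2 with a strong fall do not. The cassette and the deletion cannot be told apart. This pattern was not particular to HIS3. In WT, Δgcn4, Δgcn2 and Δire1, ILV6 had means of -1.00, 0.06, -0.14 and -1.31, and YAH1 -1.14, -0.21, -0.32 and -1.66. Not all higher genes shared it: RPP0 had -1.14, -0.40, -1.07 and -0.98. The element next to HIS3 in the table, which has no gene name here, went from -1.01, -0.86 and -1.29 in WT to -0.19, -0.14 and -0.34 in Δgcn4, but stayed at -1.04, -0.77 and -0.90 in Δgcn2. The other markers, URA3, LEU2, TRP1, ADE2 and CAN1, differed by 0.11, 0.43, 0.08, -0.11 and -0.054, and none was called. All 7 histidine genes had differences above 0, with a median of 0.24, and HIS3 was the only 1 called.

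The higher genes also included 4 that act in mitochondrial iron-sulfur cluster assembly. They were picked from the called genes after the values were seen, and the other genes of that pathway were not counted. YAH1, the ferredoxin of this pathway, went from -1.15, -0.91 and -1.36 in WT to -0.33, 0.15 and -0.45 in Δgcn4. ISA1 had -0.94, -1.20 and -1.28 against -0.39, -0.46 and -0.53, and ISU1, the scaffold on which clusters are built, -0.91, -1.06 and -1.11 against -0.60, -0.39 and -0.32. GRX5, the glutaredoxin that passes clusters on, differed by 0.56 (adjusted p = 0.043). Of 12 alternative settings ISA1 kept its call in 12, YAH1 in 7, ISU1 in 5 and GRX5 in 4, and ISA1 alone of the 4 was called with the head of the table left out. POS5, the mitochondrial NADH kinase, and CPR3, a mitochondrial cyclophilin, differed by 0.76 and 0.74. Of the 35 genes of the respiratory chain and ATP synthase none was called, and their median was 0.17.

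Further higher genes were spread over functions. CYB5, cytochrome b5, an electron donor in sterol and lipid synthesis, went from -2.00, -1.49 and -1.53 to -0.25, -1.05 and -0.61 (difference 1.03, adjusted p = 0.0122), and ERG28, a scaffold of sterol enzymes, from -1.75, -1.33 and -1.55 to -0.83, -1.02 and -0.72. Of 25 sterol genes ERG28 was the only 1 called, and 20 differences were above 0. The wall mannoproteins CCW12 and CWP2 differed by 0.75 and 0.59, both still falling. CCW12 had ratios of -1.04, -1.04 and -0.98 in WT and -0.35, -0.34 and -0.12 in Δgcn4. MPT5, an mRNA-binding protein of the Puf family, was raised by DTT in both strains, more in Δgcn4, at 0.82, 0.79 and 0.79 against 1.84, 1.43 and 1.61. SIR3, of silent chromatin, went from -0.56, -0.81 and -0.75 to 0.19, -0.12 and 0.06, URA6, the uridylate kinase, from -0.40, 0.19 and -0.07 to 0.48, 0.67 and 0.81, and PUP1, a proteasome subunit, differed by 0.62.

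**Figure D5:**
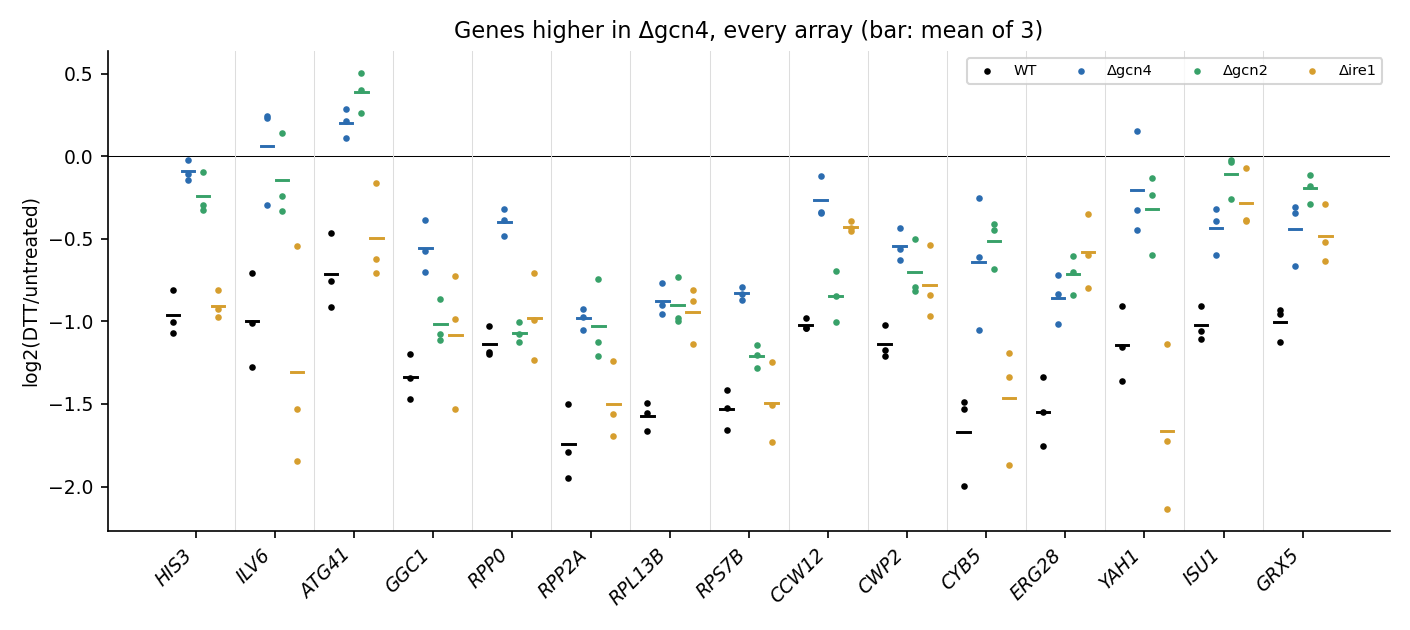
Response to DTT, the log2 of treated over untreated, on every array (vertical axis) for 15 genes higher in Δgcn4 (horizontal axis), 3 arrays a strain with the bar at their mean. The WT arrays lie below the Δgcn4 arrays for each gene, and for HIS3 the Δgcn2 arrays (-0.10 to -0.33) lie near Δgcn4 while the Δire1 arrays (-0.98 to -0.81) lie near WT. In ILV6 and YAH1 the Δgcn2 mean also lies nearer to Δgcn4 than to WT, and the Δire1 mean lies below WT.

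With the head of the table left out, 13 of the 52 higher elements were called among 5885: HIS3, ATG41, MPT5, CCW12, POS5, SIR3, CPR3, RPP0, RPL13B, RPS7B, ISA1 and 2 without a gene name here. The count of 52 was lower without single arrays, at 18 and 23 without WT replicates 1 and 3 and 27 and 23 without Δgcn4 replicates 2 and 3. The lower count of 117 went to 77 without WT replicate 3.

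The study also measured Δgcn2, which lacks the kinase upstream of GCN4 translation, and its arrays allow a comparison without WT. Between the deletions 268 elements responded lower in Δgcn4 than in Δgcn2 (4.45%) and 113 higher (1.88%). Of the 117 elements lower than WT 18 were also lower than Δgcn2, 1 (RRN9) was higher and 98 had no call, and 100 had a Δgcn4 mean below that of Δgcn2. The count of 18 fell to 3 with each array scaled to one spread. Of those 18 elements 16 stand at the head of the table. Of the 52 higher elements 4 were also higher than Δgcn2 and 0 lower. The same Δgcn4 arrays enter both comparisons. Elements chosen as low or high there thus lean the same way against Δgcn2 in part through that choice. SEC72 had ratios of 0.01, -0.16 and 0.14 in Δgcn2 and fell in Δgcn4 (difference -0.72, adjusted p = 0.00827). YET2 kept more in Δgcn2, at 2.58, 2.46 and 2.79, than in Δgcn4 (difference -1.00, adjusted p = 0.0198). SNA4 kept 0.81, 1.29 and 0.90 in Δgcn2 against -0.86, 0.21 and 0.03 in Δgcn4.

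Beside the same WT arrays, the 117 lower elements had median responses of -0.0783 in Δgcn2 and -0.13 in Δire1, next to -0.40 in Δgcn4 and 0.64 in WT. Each of these differences from WT uses the same 3 WT arrays, so their likeness is not read further. Values for Δire1 and Δgcn4 did not always go together. TRK2, a potassium transporter, had means of 0.80 in WT, 0.93 in Δgcn4 and -0.32 in Δire1, and OPI3, of phosphatidylcholine synthesis, 0.95, 1.27 and -0.22. BIR1, DOG1, TRK2, OPI3, EDC1 and CYC1, which the study names, were not called: BIR1, TRK2, OPI3 and EDC1 differed by -0.22, 0.13, 0.32 and 0.20, DOG1 by -0.77 (adjusted p = 0.0761) and CYC1 by 0.73 (adjusted p = 0.186).

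Many groups showed no call in either direction. None of 38 genes of inositol and phospholipid synthesis, 18 tRNA synthetases, 13 genes of eIF2, eIF2B and the activators of Gcn2, 16 of purine synthesis, 33 of general stress and reserve carbohydrate, 22 of autophagy and vacuolar proteases, 11 COS genes, 9 histones or 54 mitochondrial ribosomal proteins was called by limma. At an unadjusted p under 0.05, 479 of all elements were lower and 474 higher. In simulated data the fit called 23% of changes of 0.5, so a group with no call may still hold such differences. For the MATa and haploid pheromone genes none of 17 was called, with a median of 0.14.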

How the data were processed

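Poly(A) RNA of DTT-treated and untreated cells of 4 strains was hybridised to 12 2-colour spotted arrays, 3 a strain. The log2 ratios used were deposited by the authors as a value table. The direction, treated over untreated, is that of the sample titles, and the sources used here do not give the background correction. The array medians ran from -0.205 to -0.056, so the table was not centered on 0. Of 6024 elements 5432 have a gene name, from the platform annotation, updated by gene ID through RefSeq.

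One mean per strain was fitted to all 12 arrays with limma 3.58.1 in R 4.3.3 (lmFit, eBayes), with contrasts of strains and of each strain mean against 0, and Benjamini-Hochberg adjustment over all elements. The fit was tested on simulated data, where it called 23% of changes of 0.5 on the log2 scale and 93% of changes of 1. The number of arrays, 3 a strain, limits the precision. The study's methods speak of independent experiments, while the labels name no separate cultures, and p-values measure the spread between these arrays.

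Genes named were the 15 lowest and the 15 highest called, up to 4 called per direction in each of 50 lists, all regulators, strain markers and genes the study names, and defining genes of a complex; others were chosen after their values were seen. The comparison, the lists and the rule were chosen with earlier results of these data known. The search of promoters for motifs was not run, since no promoter table was given. Alternatives were centering, scaling, the 6 arrays alone, array weights, a replicate block, a variance trend, a size threshold, leaving out each array and, added after seeing the data, leaving out the first 139 elements.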

Additional observations from a re-analysis of the deposited data

Results flagged for a closer look

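For 15 of the elements named above the response differed between the 2 deletions, by the test of that difference in limma with Benjamini-Hochberg adjustment, Δgcn4 minus Δgcn2. SNA4 (-1.21, adjusted p = 0.0168), LAS21 (-1.07, adjusted p = 0.0264), YET2 (-1.00, adjusted p = 0.0198), DPM1 (-1.00, adjusted p = 0.0357), SEC72 (-0.72, adjusted p = 0.00827), HOP1 (-0.70, adjusted p = 0.0402) and THI20 (-0.65, adjusted p = 0.0172) were lower in Δgcn4. So were ERV25 (-0.64, adjusted p = 0.0388), UBC7 (-0.62, adjusted p = 0.0249), DFM1 (-0.54, adjusted p = 0.0409) and SEC26 (-0.47, adjusted p = 0.0446). All 11 stand at the head of the table. With each array scaled to one spread, SEC72 alone of the 15 was still called (adjusted p = 0.0201). The 15 were chosen as lower or higher than WT on the same Δgcn4 arrays, so this test is not independent of that choice. DPM1 had a mean of -1.41 in Δgcn4 and -0.41 in Δgcn2, and DFM1 0.89 and 1.43.

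RRN9 was the only element lower than WT that was called higher than in Δgcn2: it fell by 1.83 in Δgcn2 and by 1.16 in Δgcn4, a difference of 0.67 (adjusted p = 0.0464). Of the elements higher in Δgcn4 than in WT, RPP0 (0.67, adjusted p = 0.0168), CCW12 (0.58, adjusted p = 0.0193) and the unnamed element beside HIS3 (0.68, adjusted p = 0.0194) were also higher than in Δgcn2, where their means were -1.07, -0.85 and -0.90. Groups of 3 arrays were not tested for single arrays that lie far from the others.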

How the results depend on the processing

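The count of lower elements, 117, stayed within 1.5 times under 6 of the 7 other settings that keep all replicates (96 to 166) and was 48 with a difference of at least 1. Leaving out an array gave 77 to 117. With the first 139 elements left out it was 6. The higher count, 52, was 23 with the 6 arrays alone, 141 with array weights, 2 with a difference of at least 1, 18 to 43 without an array and 13 without the first 139 elements. Secretory genes called lower numbered 28, and 19 to 27 without an array. Those outside the head of the table numbered 0, 1 with array weights, 1 with the replicate block and 0 to 1 without an array. All lower elements there numbered 26, 12 with the 6 arrays alone, 73 with array weights, 10 to 29 without an array and 6 with the first 139 elements left out. Ribosomal protein genes called higher numbered 13, 7 after scaling, 6 with the 6 arrays alone, 22 with array weights, 2 to 11 without an array and 3 without the first 139 elements. Amino acid synthesis genes called higher numbered 2, 1 after scaling, 5 with array weights, 4 with the replicate block, 1 with a variance trend, 1 to 2 without an array and 1 without the first 139 elements. Elements lower than both WT and Δgcn2 numbered 18, and 3 after scaling. No named gene that was called reversed its direction, and named genes without a call were not checked for this. Under the 12 alternatives that keep the elements and set no size, 71 of the 117 lower and 10 of the 52 higher elements kept their call, 66 of the 71 at the head of the table. Of those 12, LHS1 lost its call in 7, DHH1 and SSA1 in 5 each, and SIL1 and HSP104 in 1, scaling (adjusted p = 0.0588 and 0.0568). These were not the only named genes to lose a call. Among the lower, ALG14 lost it in 7, and DFM1 and SEC12 in 4 each. Among the higher, ILV6, DIE2, ERG28 and RRP40 lost it in 6 each, CWP2 in 7, PUP1 in 8 and RPP1B in 9. Except where named, the cause was not tested.

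The replicate block, with 137 lower and 64 higher, held all 117 lower and 51 of the 52 higher elements. A pairing of WT with Δgcn4 by number was not clear, and a weak one is not excluded. Deviations of arrays with the same number correlated by 0.0823, 0.276 and 0.293 across elements, and arrays with other numbers by -0.517 to 0.299. WT and Δgcn2 arrays with the same number correlated by 0.574 to 0.662, and with other numbers by -0.414 to -0.198. The title of 1 WT array carries no number, and its number, 1, was given in accession order, so that the block and these correlations rest on it in part.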

Other observations

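The median SD of an element between the 3 replicates was 0.173 at the head of the table and 0.18 after it in WT, and 0.208 and 0.177 in Δgcn4.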
